A study of Mus musculus with 38 samples.

Results

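The 8 genes described here encode small GTPases of the Ras family and the proteins that switch them on and off. They are the GTPases Rasd1, Rasd2, Hras and Nras, the exchange factors Rasgrp1, Rasgrf1 and Rasgrf2, and the GTPase activating protein Nf1. They were chosen by symbol, and each had its own row among the 23420 genes counted in every library, with Hras listed under its older symbol Hras1. Each was compared between reporter-positive and reporter-negative cells of the same mouse.

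The study asked which transcripts distinguish dentate gyrus neurons that keep the immediate early gene Arc active a day after a fear memory is formed. All mice were male Arc::dVenus transgenics backcrossed to C57BL/6J and aged 8 to 12 weeks, in which the Arc promoter drives a destabilised Venus fluorescent protein. Fear conditioned (FC) mice received 3 foot shocks, each paired with a tone, no-shock (NS) mice met the same context and tones without a shock, and home-cage (HC) mice had no exposure. In each mouse, 10 fluorescent (dVenus+) and 10 non-fluorescent (dVenus-) granule neurons were picked by pipette, 24 h after training in FC and NS. The 10 cells of a kind were pooled into 1 library by the Smart-seq2 method, which copies transcripts over their full length. The reporter thus marks cells by recent activity of the Arc promoter, and a library stands for 10 hand-picked cells. Here, 12 FC, 4 NS and 3 HC mice were analysed, with 1 library of each kind per mouse. The group and mouse of each library were taken from its title and characteristics, and for 10 NS and HC libraries the description names a different library. The level of Arc, given later, separates the reporter groups by title, but the mouse of each NS and HC library depends on the titles being right.

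Ras proteins are molecular switches that are active when bound to GTP and inactive when bound to GDP. Exchange factors load them with GTP, GTPase activating proteins speed up GTP hydrolysis, and active Ras passes the signal to the Raf, MEK and ERK kinases and to phosphoinositide 3-kinase. In hippocampal neurons calcium entry through glutamate receptors reaches Ras through calcium-sensitive exchange factors, and the pathway is known for its part in synaptic plasticity and memory.

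Counts assigned to genes ranged from 1352288 to 11151828 in the 12 FC dVenus+ libraries and from 3554946 to 18394761 in the 12 FC dVenus- libraries. The NS libraries held 5713182 to 8470731 counts in dVenus+ and 8415900 to 8771721 in dVenus- cells, and the HC libraries 5970884 to 7456391 and 6856117 to 9096451. Levels are given as counts-per-million values (CPM), normalized to the total count on genes and by TMM over all 38 libraries. Numbers of mice higher or lower use these scaled levels, and some directions, in FC too, turn without TMM scaling. The reads were amplified without molecular identifiers, so floors derived from counts cover counting error only. FC mice came from 3 series of sample IDs, of 2, 4 and 6 mice, whereas every NS and HC mouse belonged to a 4th, so for levels the training history and the ID series cannot be told apart. The comparison within mice is free of this, and values within each FC series are given beside the FC results. Tests of a difference between training histories compare mice of different ID series, so for them too the 2 cannot be told apart.

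Arc, which drives the reporter and checks the sorting, separated the cell types in every training history. It ranged from 477 to 1540 CPM (median 829.8) in the FC dVenus+ libraries and from 0 to 172 CPM (median 0.565) in the FC dVenus- libraries. In NS the dVenus+ libraries held 147 to 862 CPM and the dVenus- libraries 0 to 4.33, and in HC they held 278 to 607 and 0 to 4.96. The groups did not overlap in FC, NS or HC.

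Markers of cell types also moved with the reporter. The summed level of 9 granule cell genes was lower in dVenus+ cells in 12 of 12 FC, 4 of 4 NS and 3 of 3 HC mice, with a median of 515 against 1428 CPM in FC, 367 against 1659 in NS and 598 against 1218 in HC. Of these, C1ql2, Calb1, Rfx3 and Stxbp6 were called lower in FC. Trpc6 had higher medians in dVenus+ cells in FC (105.7 against 51.0 CPM), NS (33.9 against 19.3 CPM) and HC (2.12 against 0 CPM). The HC mean of Trpc6 was lower in dVenus+ cells (4.46 against 41.3 CPM). Tdo2 was at 0 in the NS dVenus+ and the HC dVenus- libraries. The sum of 5 mature neuron genes, led by Snap25, was lower in dVenus+ cells in 11 of 12 FC, 4 of 4 NS and 3 of 3 HC mice, although in NS the medians of Syt1 (647 against 421 CPM) and Slc17a7 (87.6 against 66.4 CPM) were higher in dVenus+ cells. Of these genes, Camk2a and Rbfox3 were called lower in FC. The sum of 12 microglia genes, with Ctss the most abundant in FC, was higher in dVenus+ cells in 10 of 12 FC, 4 of 4 NS and 3 of 3 HC mice, with FC medians of 349 and 59.0 CPM, and 5 of them (C1qa, C1qc, Csf1r, Aif1 and Tyrobp) were called higher in FC. In NS mouse 21 (988 against 708 CPM) and HC mouse 17 (546 against 484 CPM) the direction of the sum came from TMM scaling and turns without it. Not every gene of the list followed: P2ry12 had a lower median in dVenus+ cells in FC (2.40 against 4.43 CPM) and HC (19.7 against 63.0 CPM) and a count in only 1 of 4 NS dVenus+ libraries, Tmem119 had a count in 1 of 3 HC libraries of each kind (means 45.1 and 46.8 CPM), and Laptm5 had a lower median in dVenus+ cells in HC (66.5 against 75.0 CPM). Aif1 followed, and was at 0 in the HC dVenus- libraries. The sum of 7 astrocyte genes was lower in dVenus+ cells in 9 of 12 FC mice and higher in 2 of 4 NS mice. It was higher in 3 of 3 HC mice, without overlap after TMM scaling (1318 to 1562 against 305 to 509 CPM). Without that scaling the HC groups overlap, and 3 libraries a group are few for a lack of overlap to weigh much. A difference of this sum between training histories was not tested. In FC the medians of Gfap, Slc1a2 and Slc1a3 were lower in dVenus+ cells. Those of Aqp4 (2.26 against 0.150 CPM), Gja1 (0.323 against 0.0731 CPM) and S100b (7.22 against 4.70 CPM) were higher. Interneuron genes reached a sum of 2477 CPM in the FC dVenus- library of mouse 10, against a median of 139 CPM in that group. Their sum was higher in dVenus+ cells in 3 of 12 FC, 1 of 4 NS and 2 of 3 HC mice. Gad1 was called lower in FC, whereas Gad2 had a higher FC median in dVenus+ cells (15.7 against 8.62 CPM). The median log2 difference of the interneuron genes tested was -0.97 in FC, 1.05 in NS and 1.27 in HC. The part of these markers in the results below was not tested, and in pools of 10 cells fewer cells of a type and less RNA per cell cannot be told apart.

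**Figure D1:**
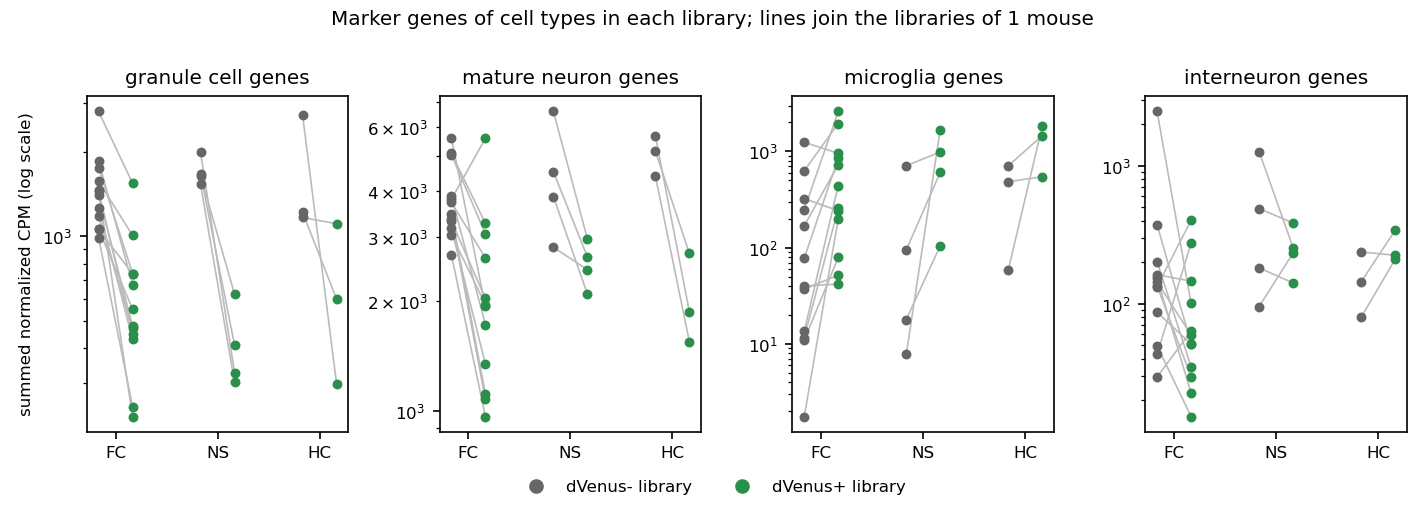
Summed normalized CPM (log scale) of the marker genes of 4 cell types in each library, with dVenus- libraries in grey, dVenus+ libraries in green and lines joining the libraries of 1 mouse. The granule cell sum is lower in dVenus+ cells in all 19 mice, and the microglia sum is higher in 10 of 12 FC, 4 of 4 NS and 3 of 3 HC mice. The microglia direction in NS mouse 21 and HC mouse 17 came from TMM scaling.

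Differences within mice were tested across all genes with edgeR's two-sided quasi-likelihood test with mouse as a block, and a gene was called at a Benjamini-Hochberg adjusted p under 0.05 over all genes tested and a log2 fold change beyond 1 in either direction. In FC, 1 of the 8 Ras genes, Rasd1, was called, against 422 of all 9709 genes tested, or 4.35%. The 422 were 146 genes higher (1.50%) and 276 lower (2.84%) in dVenus+ cells. DESeq2 called 3 of the 8 and 16.8% of all genes, and edgeR's older quasi-likelihood method 0 of the 8 and 1.41%. A share of 1 in 8 rests on a single gene and is no result about the group. The median log2 difference was -0.21 over the 8 genes and -0.11 over all genes tested. In NS, edgeR called 0 of the 7 Ras genes that passed the count filter, against 4 of 8187 genes (0.0489%, with 0.0366% higher and 0.0122% lower), while 2 of the 7 and 710 of all genes (8.67%) had an unadjusted p under 0.05 and DESeq2 called 1 of the 7 and 8.13% of all genes. In HC, edgeR called 0 of 7, against 0 of 7588 genes (0%) with 532 genes (7.01%) at an unadjusted p under 0.05, while 0 of the 7 had one. There DESeq2 called 0 of the 7 and 625 of all genes (8.24%), and edgeR's older method 0 of the 7 and 0.0264%.

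Rasd1, also known as Dexras1, is a small GTPase first described as induced by dexamethasone. It lies on the minus strand of chromosome 11 (chr11:59963181-59964944, mm10). Among the 12 FC dVenus+ libraries it ranged from 0 to 52.7 CPM with a median of 8.79, and among the 12 FC dVenus- libraries from 0 to 13.3 CPM with a median of 0. In counts these were 0 to 527 in dVenus+ and 0 to 183 in dVenus- cells. The groups overlapped, since 2 dVenus+ libraries (mice 05 and 06) had no Rasd1 count and 3 dVenus- libraries (mice 01, 05 and 14) had 70, 183 and 55 counts. The other 9 dVenus- libraries were at 0, where a floor of 3 counts corresponds to 0.163 to 0.844 CPM before TMM scaling. Within mice, dVenus+ cells were higher in 10 of 12 mice (in mouse 07 on 3 counts only, the size of the floor), lower in mouse 05 and at 0 together with the dVenus- cells in mouse 06.

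Rasd1 rose in FC dVenus+ cells by a log2 fold change of 4.33 (SE 1.06, 12 mice, edgeR, Benjamini-Hochberg adjusted p = 0.0158), a fitted ratio of 20.1. It passed the count filter with exactly 12 libraries, the fewest that the filter accepts, and 9 of these were dVenus+. The size of the difference depended on the method, from 4.33 here to 9.22 with DESeq2. The call was lost without mouse 01 (5.11, edgeR adjusted p = 0.0512), without mouse 14 (4.35, edgeR adjusted p = 0.0843) and with edgeR's older quasi-likelihood method (6.93, edgeR adjusted p = 0.0565), over a range of adjusted p from 9.38e-10 to 0.810 across the alternatives. Within the ID series of 2, 4 and 6 mice, Rasd1 was higher in dVenus+ cells in 2, 2 and 6 mice, with log2 fold changes of 3.66, 1.58 and 5.85, and no series passed the test alone. The granule cell marker sum moved the other way in the same libraries. The microglia marker sum was higher in dVenus+ cells in the same 10 mice as Rasd1 and lower in mice 05 (957 against 1244 CPM) and 06 (242 against 322 CPM), where Rasd1 was lower or at 0. The part of either in the result was not tested.

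Outside FC, Rasd1 had no count in most libraries. In NS it had 85 counts (19.9 CPM) in the dVenus+ library of mouse 21 and 0 in the other 3 dVenus+ libraries and in all 4 dVenus- libraries. Against a floor of 3 counts over the dVenus- group, the summed dVenus+ level before TMM scaling was at least 35.8-fold higher (log2 5.16), all of it from that library. In HC there were 22 counts (2.92 CPM) in the dVenus+ library of mouse 17, 13 counts (2.62 CPM) in the dVenus- library of mouse 16 and none in the other 4. Both groups lay below the count filter. In a fit without the filter the NS difference, which rests on that 1 dVenus+ library of mouse 21, was not called (edgeR, Benjamini-Hochberg adjusted p = 0.696). The HC difference in such a fit was 1.09 (SE 2.63, edgeR, Benjamini-Hochberg adjusted p = 0.864, higher in 1 of 3 mice). The difference between FC and NS in the Rasd1 effect was -4.60 (SE 5.81) and that between FC and HC was 2.92 (SE 3.56) on the log2 scale, with edgeR interaction tests giving Benjamini-Hochberg adjusted p = 0.890 and 0.861. The size of the first has no meaning of its own, since the NS dVenus- libraries held 0 counts, and it turned to 1.73 with the older quasi-likelihood method. Calls in FC and not elsewhere are therefore not shown to differ between training histories.

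**Figure D2:**
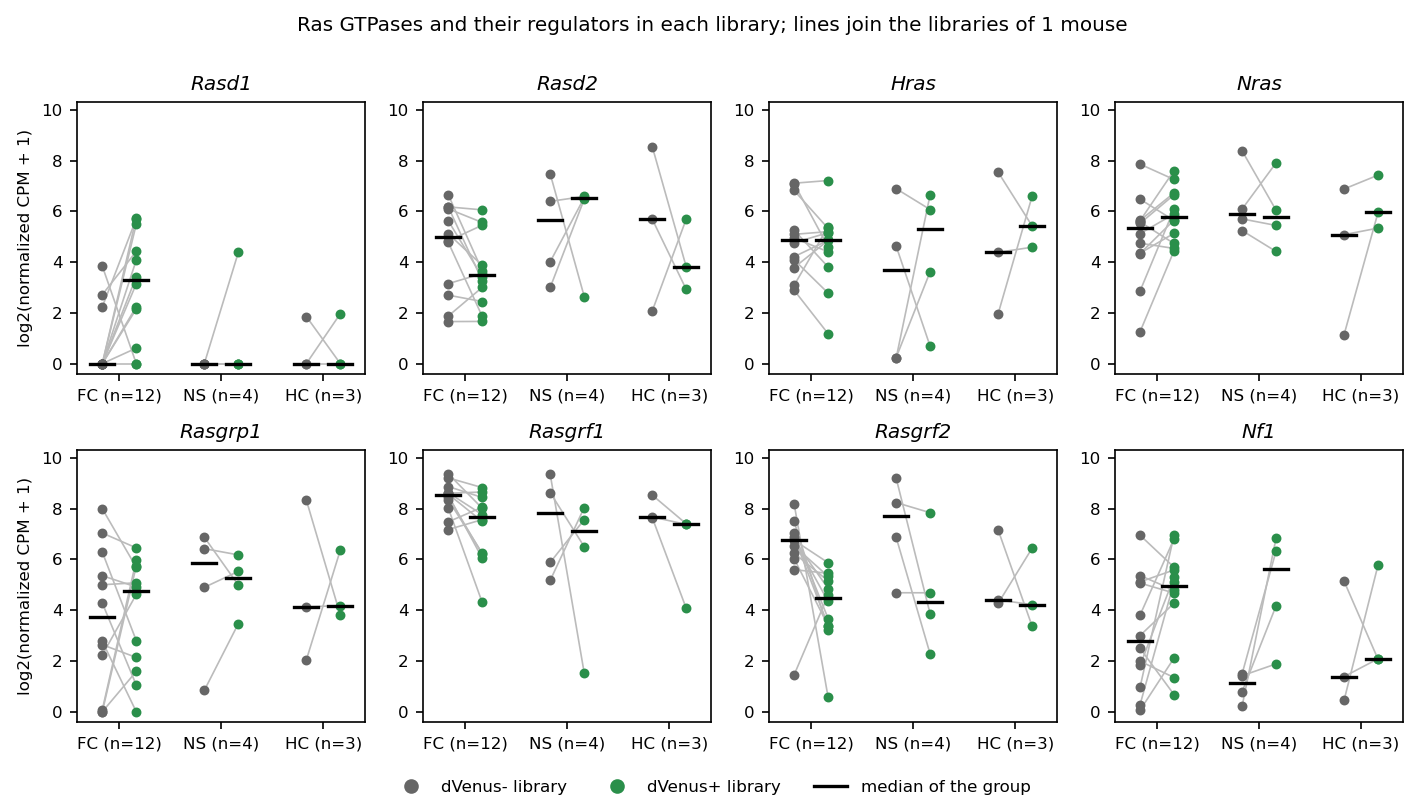
Level of the 8 genes in each library as log2(normalized CPM + 1), with dVenus- libraries in grey, dVenus+ libraries in green, lines joining the libraries of 1 mouse and black bars at the group medians (FC 12, NS 4, HC 3 mice). Rasd1 is at 0 in 9 of 12 FC dVenus- libraries, and Rasgrf2 is lower in dVenus+ cells in 11 of 12 FC mice.

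Rasd2, or Rhes, is the closest relative of Rasd1 and is known for its high level in the striatum. It lies at chr8:75213944-75224113 on the plus strand and was counted in every library. In FC it ranged from 2.16 to 65.6 CPM (median 10.2) in dVenus+ and from 2.15 to 100.1 CPM (median 30.6) in dVenus- libraries. The groups overlapped over most of their range, with 4 dVenus- libraries above the highest dVenus+ library. dVenus+ cells were lower in 8 of 12 mice, and the log2 difference of -0.97 (SE 0.63) did not pass the test (edgeR, Benjamini-Hochberg adjusted p = 0.451). Within the ID series of 2, 4 and 6 mice, Rasd2 was lower in 2, 2 and 4 mice.

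In NS, the dVenus+ libraries of mice 18, 19, 20 and 21 held 88.4, 92.0, 5.25 and 95.1 CPM of Rasd2, and their dVenus- libraries 7.01, 15.2, 177 and 83.1 CPM. The reporter groups thus overlapped and mouse 20 went against the other 3. In HC, mice 15, 16 and 17 held 6.58, 13.0 and 51.0 CPM in dVenus+ and 50.6, 374 and 3.21 CPM in dVenus- cells. Here 2 of 3 mice were lower in dVenus+ cells and the groups overlapped. The differences were 0.82 (SE 1.49) in NS and -2.06 (SE 2.35) in HC, with edgeR Benjamini-Hochberg adjusted p = 0.896 and 0.815.

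Hras and Nras are 2 of the classical Ras GTPases, which relay signals from growth factor and neurotransmitter receptors. Hras (chr7:141189105-141194005, minus strand) had a median of 27.9 CPM in FC dVenus+ (1.26 to 147) and 28.0 CPM in FC dVenus- libraries (6.42 to 137). The medians were nearly equal, the groups overlapped, and 6 mice were higher and 6 lower in dVenus+ cells. Its log2 difference was -0.35 (SE 0.56, edgeR, Benjamini-Hochberg adjusted p = 0.817). By ID series, 2 of 2, 1 of 4 and 3 of 6 mice were higher.

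Nras (chr3:103058285-103067914, plus strand) ranged from 20.8 to 194 CPM (median 54.0) in FC dVenus+ and from 1.39 to 231 CPM (median 39.4) in FC dVenus- libraries. The groups overlapped, with 4 dVenus- libraries below the lowest dVenus+ library and 1 above the highest. dVenus+ cells were higher in 8 of 12 mice, with a log2 difference of 0.90 (SE 0.52, edgeR, Benjamini-Hochberg adjusted p = 0.378). In mouse 07 this direction came from TMM scaling, with 333 of 11151828 counts in dVenus+ against 769 of 18394761 in dVenus- cells. Without TMM scaling the FC means moved from 73.1 against 51.2 to 72.9 against 67.5 CPM. The mice that were higher numbered 2 of 2, 3 of 4 and 3 of 6 in the ID series.

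In NS, Hras in mice 18, 19, 20 and 21 was 66.2, 11.3, 0.605 and 100.02 CPM in dVenus+ and 118, 0.181, 23.8 and 0.160 CPM in dVenus- cells. Libraries at both ends of this range occurred in both groups, and the lowest values rest on 1 to 3 counts. Nras in the same mice was 64.9, 239, 20.4 and 42.5 CPM in dVenus+ and 333, 67.0, 36.9 and 51.1 CPM in dVenus- cells. It was higher in dVenus+ cells in 1 of 4 mice and the groups overlapped. In HC mice 15, 16 and 17, Hras was 23.0, 41.8 and 96.3 CPM in dVenus+ and 19.9, 185 and 2.92 CPM in dVenus- cells, while Nras was 39.5, 61.4 and 171 against 32.9, 1.21 and 117 CPM. Nras was higher in dVenus+ cells in 3 of 3 HC mice, but by 1.20-fold and 1.46-fold in mice 15 and 17, and the groups overlapped. In these 2 mice the direction came from TMM scaling, and without it the HC group means turned from 90.6 against 50.3 to 72.0 against 75.9 CPM. The log2 differences were 0.82 (SE 1.97) for Hras and -0.44 (SE 1.10) for Nras in NS, and 0.53 (SE 2.01) and 1.35 (SE 1.58) in HC. With edgeR the Benjamini-Hochberg adjusted p was 0.923 and 0.926 in NS and 0.956 and 0.820 in HC.

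Among the exchange factors, Rasgrf1 and Rasgrf2 respond to calcium through calmodulin and couple glutamate receptors to Ras, and Rasgrf1 is imprinted in the mouse brain. In FC both had lower levels in dVenus+ cells in most mice, and neither difference passed the test. The promoter windows of this pair are shown because both genes were lower in 9 or more of 12 FC mice. The table of promoters at hand, from RefSeq for GRCm38.p6, held 7 of the 8 genes and not Rasd1, and each window runs from 250 bases before to 50 bases after the start of a transcript. The windows of Rasgrf1 (chr9:89909525-89909824, plus strand, 68.3% G or C) and Rasgrf2 (chr13:92131779-92132078, minus strand, 66.0% G or C) read as follows, 5′ to 3′ on the gene's strand, with capitals marking a match to the half-site of the cyclic AMP response element.
Rasgrf1: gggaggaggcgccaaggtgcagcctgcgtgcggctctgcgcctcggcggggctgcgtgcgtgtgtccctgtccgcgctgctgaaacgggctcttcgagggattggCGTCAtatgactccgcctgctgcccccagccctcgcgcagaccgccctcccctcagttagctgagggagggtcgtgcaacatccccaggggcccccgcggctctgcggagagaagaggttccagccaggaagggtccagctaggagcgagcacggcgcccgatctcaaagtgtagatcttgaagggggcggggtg
Rasgrf2: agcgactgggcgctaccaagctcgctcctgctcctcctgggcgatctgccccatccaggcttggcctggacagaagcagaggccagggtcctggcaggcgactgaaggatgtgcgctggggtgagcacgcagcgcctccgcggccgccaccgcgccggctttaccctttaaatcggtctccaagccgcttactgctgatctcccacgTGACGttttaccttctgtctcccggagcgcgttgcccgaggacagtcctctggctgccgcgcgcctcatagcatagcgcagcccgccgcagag
Both strands were searched for the cyclic AMP response element (TGACGTCA), its half-site (TGACG, which lies within the full element), the AP-1 site (TGANTCA) and the Egr site (GCGNGGGCG). The half-site begins at -145 in Rasgrf1 and at -43 in Rasgrf2, counted from the transcript start, and Hras has it at -109 and -33. The other 3 motifs had no match in the 7 windows, and Rasd2, Rasgrp1, Nras and Nf1 had no half-site. Among all 32851 promoters of this length the half-site occurs in 20.8%, the full element in 1.79%, the AP-1 site in 7.81% and the Egr site in 5.55%, and the median content of G or C is 52.7%. A match is a description of letters and says nothing of binding.

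Rasgrf2 (chr13:91880400-92131656, minus strand) ranged from 0.481 to 57.6 CPM (median 21.3) in FC dVenus+ and from 1.74 to 292 CPM (median 107) in FC dVenus- libraries. The groups overlapped, with the dVenus- libraries of mice 04 and 06 (1.74 and 47.5 CPM) below the highest dVenus+ library, and in mouse 04 the dVenus+ cells held more, at 23.2 CPM. In 10 of 12 mice the dVenus- library lay above the highest dVenus+ library, and 11 of 12 mice were lower in dVenus+ cells. The log2 difference was -2.09 (SE 0.66, edgeR, Benjamini-Hochberg adjusted p = 0.0680), a fitted ratio of 4.25, and was not called. Without mouse 04 it was -2.43 (edgeR adjusted p = 0.0185), without the mouse block -2.18 (edgeR adjusted p = 0.00799) and with DESeq2 -2.09 (adjusted p = 0.00598), all past the threshold, over a range of adjusted p from 0.00598 to 0.843. Within the ID series of 2, 4 and 6 mice, 2, 3 and 6 were lower. The granule cell sum was lower in the same libraries, and its part in the result was not tested.

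In NS mice 18, 19, 20 and 21, Rasgrf2 was 13.5, 229, 3.83 and 24.8 CPM in dVenus+ and 589.6, 302, 116 and 24.8 CPM in dVenus- cells. It was lower in dVenus+ cells in 4 of 4 mice, although in mouse 21 the values were 24.77 and 24.81, and the groups overlapped. In HC mice 15, 16 and 17 it was 86.4, 9.30 and 17.6 CPM in dVenus+ and 18.3, 142 and 20.2 CPM in dVenus- cells. The HC groups overlapped, with 2 of 3 mice lower. The log2 differences were -2.49 (SE 1.21) in NS and -0.52 (SE 1.91) in HC, and neither passed the test (edgeR, Benjamini-Hochberg adjusted p = 0.574 and 0.955).

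Rasgrf1 (chr9:89909908-90026977, plus strand) had 107 to 9658 counts in the FC libraries. It ranged from 18.8 to 455 CPM (median 203) in FC dVenus+ and from 144 to 664 CPM (median 376) in FC dVenus- libraries. The groups overlapped, with 4 dVenus+ libraries (mice 01, 03, 05 and 07) below the lowest dVenus- library. The level was lower in dVenus+ cells in 9 of 12 mice, with a log2 difference of -1.07 (SE 0.37, edgeR, Benjamini-Hochberg adjusted p = 0.0996), which was called only with DESeq2 among the 11 other settings (-1.04, adjusted p = 0.0349, over a range of 0.0349 to 0.848). All 2 and all 4 mice of the smaller ID series were lower, and 3 of 6 in the largest. In mouse 14 of the largest, dVenus+ cells were higher only after TMM scaling, with 1351 of 8012131 counts against 5789 of 9241471.

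In NS mice 18, 19, 20 and 21, Rasgrf1 was 263, 89.6, 189 and 1.87 CPM in dVenus+ and 35.2, 396, 58.1 and 652 CPM in dVenus- cells. Mice 18 and 20 went against mice 19 and 21, and the groups overlapped. In HC mice 15, 16 and 17 it was 166, 15.8 and 168 CPM in dVenus+ and 204, 199 and 370.3 CPM in dVenus- cells. The HC groups did not overlap and 3 of 3 mice were lower in dVenus+ cells. This comparison called 0% of genes, a stricter measure, and 3 libraries a group are few for a lack of overlap to weigh much. Without TMM scaling the HC groups overlap. Rasgrf1 held 1271 of 7456391 counts in the dVenus+ library of mouse 17 and 989 of 9096451 in the dVenus- library of mouse 16. The log2 differences were -0.56 (SE 1.43) in NS and -1.70 (SE 1.16) in HC, with edgeR Benjamini-Hochberg adjusted p = 0.927 and 0.736.

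Rasgrp1 is an exchange factor recruited to membranes by diacylglycerol and is located at chr2:117279993-117343001 on the minus strand. In FC it ranged from 0 to 86.8 CPM (median 26.4) in dVenus+ and from 0 to 255 CPM (median 12.2) in dVenus- libraries. The groups overlapped, with 2 dVenus- libraries above the highest dVenus+ library, 1 dVenus+ and 2 dVenus- libraries at 0, and 5 of 12 mice higher in dVenus+ cells. The log2 difference was -0.07 (SE 0.91, edgeR, Benjamini-Hochberg adjusted p = 0.984), opposite in sign to that of the medians. By ID series, 0 of 2, 2 of 4 and 3 of 6 mice were higher. The difference turned positive in the series of 6 mice (0.22) and with the number of detected genes as a covariate (0.16).

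In NS mice 18, 19, 20 and 21, Rasgrp1 was 71.6, 45.3, 10.1 and 30.8 CPM in dVenus+ and 85.1, 28.9, 0.793 and 117 CPM in dVenus- cells. In HC mice 15, 16 and 17 it was 82.0, 17.2 and 13.0 CPM in dVenus+ and 3.12, 16.5 and 323 CPM in dVenus- cells. The groups overlapped in both, with 2 of 4 NS and 2 of 3 HC mice higher in dVenus+ cells. The log2 differences were 0.09 (SE 1.31) and -0.15 (SE 2.47), with edgeR Benjamini-Hochberg adjusted p = 0.992 and 0.993.

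Nf1 encodes neurofibromin, a GTPase activating protein that returns Ras to its inactive state and is lost in neurofibromatosis type 1. It lies at chr11:79339693-79581612 on the plus strand. The genes Omg, Evi2, Evi2a and Evi2b lie within it on the opposite strand, and they share 0 exon bases with it. The counting is not stated to use strand and the library method does not mark it, so reads from antisense transcripts across the exons of this or the other genes cannot be told apart. In FC, Nf1 ranged from 0.597 to 124 CPM (median 30.1) in dVenus+ and from 0.0439 to 123 CPM (median 5.83) in dVenus- libraries. The groups overlapped over nearly the whole range, and 7 of 12 mice were higher in dVenus+ cells. The log2 difference of 1.45 (SE 0.83) did not pass the test (edgeR, Benjamini-Hochberg adjusted p = 0.381). In the ID series, 1 of 2, 3 of 4 and 3 of 6 mice were higher.

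Among those of the 8 genes that passed the count filter, Nf1 in NS had the largest fitted log2 difference outside FC. In NS mice 18, 19, 20 and 21, Nf1 was 2.69, 79.8, 114 and 17.1 CPM in dVenus+ and 1.68, 1.81, 0.159 and 0.720 CPM in dVenus- cells. In counts these were 20, 268, 565 and 73 against 11, 10, 2 and 9. The groups did not overlap and 4 of 4 mice were higher in dVenus+ cells, although mouse 18 differed by only 1.61-fold. This comparison called 0.0489% of genes. A call is a stricter measure than a lack of overlap, so that share does not show how often groups of 4 libraries lie apart. The log2 difference was 5.34 (SE 2.03) and was not called by edgeR (Benjamini-Hochberg adjusted p = 0.510), while DESeq2 called it (5.04, adjusted p = 0.0125), over a range of adjusted p from 0.0125 to 1.00. In HC mice 15, 16 and 17, Nf1 was 54.3, 3.25 and 3.18 CPM in dVenus+ and 0.371, 1.61 and 34.4 CPM in dVenus- cells. The HC groups overlapped, 2 of 3 mice were higher, the group means of 20.2 and 12.1 CPM turned to 12.5 and 17.7 without TMM scaling, and the log2 difference was 0.97 (SE 3.15, edgeR, Benjamini-Hochberg adjusted p = 0.948). Across all 38 libraries, the Nf1 level went down as the total count went up (Spearman rho -0.571), and the NS dVenus- library held more counts than the dVenus+ library in mice 18, 19 and 20 but not in mouse 21. The part of depth in the Nf1 result was not tested.

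**Figure D3:**
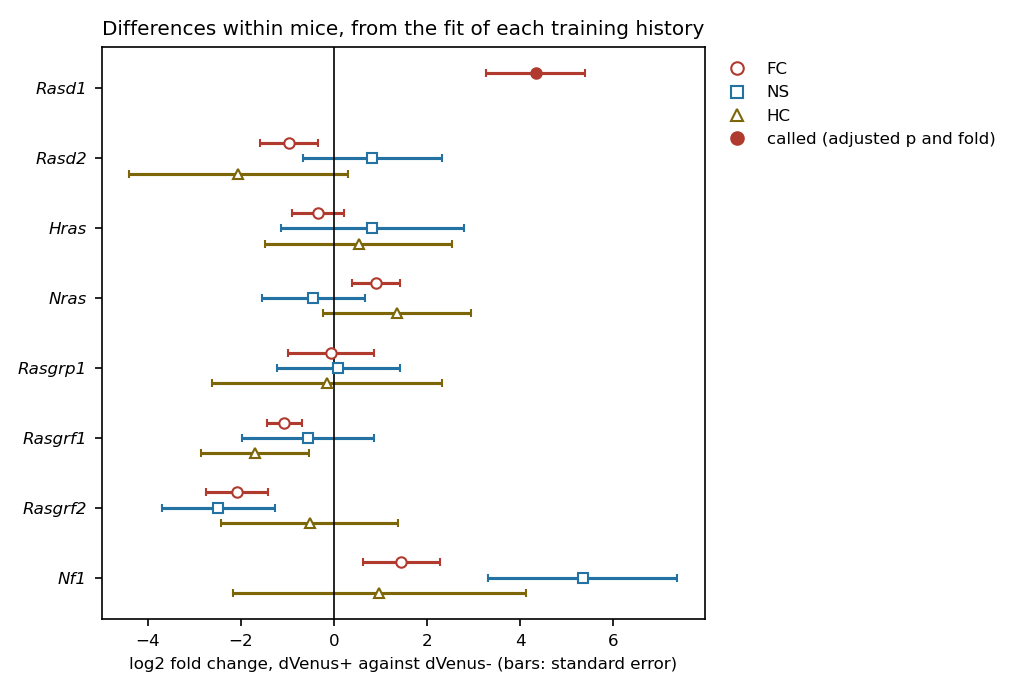
Log2 fold change of dVenus+ against dVenus- cells for the 8 genes in FC (circles), NS (squares) and HC (triangles), with bars of 1 standard error and filled symbols for called genes. Rasd1 in FC (4.33) is the only filled symbol, and Rasd1 is not drawn for NS and HC, where it lay below the count filter.

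No test of a difference between training histories passed for any of the 8 genes. Across all 14075 genes, edgeR's interaction test called 0 (0%) between FC and NS and 0 (0%) between FC and HC, with 1152 and 1304 genes at an unadjusted p under 0.05, while DESeq2 called 1192 and 1583. Among the 8 genes both edgeR and DESeq2 called 0, and 0 had an unadjusted p under 0.05 with edgeR. Nf1 had the difference with the smallest p, at -3.77 for FC minus NS (SE 1.93, edgeR, Benjamini-Hochberg adjusted p = 0.625). For Rasgrf2 the FC effect differed from the NS effect by 0.42 (SE 1.57) and from the HC effect by -1.75 (SE 1.72), with edgeR Benjamini-Hochberg adjusted p = 1.00 and 0.793. For Rasgrf1 the same differences were -0.56 (SE 1.44) and 0.44 (SE 1.23). The interaction tests were not repeated with a mouse left out. In the fits of dVenus+ against dVenus- cells, leaving a mouse out turned the sign for Rasd2, Hras, Nras, Rasgrp1 and Rasgrf1 in NS. In HC it turned for Rasd1, Rasd2, Hras, Rasgrp1, Rasgrf2 and Nf1. The standard errors show that effects of several-fold would not have been detectable.

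Compared per kilobase of exon, Rasgrf1 stood first of the 8 genes in 4 of the 6 groups. Its median level was 18.4 CPM per kb in FC dVenus+ and 34.0 in FC dVenus- libraries. In FC dVenus- cells it lay above Rasgrf2, second at 11.6 CPM per kb, in 12 of 12 libraries. Rasgrf2, Rasd2 (9.63), Hras (7.50) and Nras (7.40) followed without a clear order, since each exceeded the next in only 5 to 8 of 12 libraries, and Nf1 (0.368) and Rasd1 (0) were lowest. In FC dVenus+ cells, Rasgrf1 exceeded Nras, second at 10.1 CPM per kb, in 8 of 12 libraries, and Rasd1 ranked 4th at 5.46, between Hras (7.48) and Rasgrp1 (4.72). These neighbours exceeded each other in 6 of 12 libraries. Rasgrf2 ranked 7th in FC dVenus+ cells at 2.30 CPM per kb. In NS, Rasd2 stood first in dVenus+ (28.4 CPM per kb) and Rasgrf2 in dVenus- cells (22.6), each above the next gene in 3 and 2 of 4 libraries. In HC, Rasgrf1 stood first in dVenus+ (15.0) and dVenus- cells (18.4), above the next gene in 1 of 3 and 2 of 3 libraries.

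Correlations between the 8 genes were weak over all libraries and wider within groups. Over the 28 pairs, the Spearman correlation of log2 CPM across 38 libraries had a median of -0.05, from -0.34 for Rasgrf1 with Hras to 0.24 for Rasd1 with Hras. Within the 12 FC dVenus+ libraries they ran from -0.58 for Rasgrp1 with Nras to 0.58 for Rasgrf1 with Rasgrf2, and within the 12 FC dVenus- libraries from -0.59 for Rasd2 with Hras to 0.69 for Rasd2 with Rasgrp1. These libraries share ID series and depth, and the 38 also share mice, so the values are a description. Arc separates the reporter groups, so a correlation with it across the 38 libraries partly restates the difference between dVenus+ and dVenus- cells. With Arc across the 38 libraries, Rasd1 had a rho of 0.526 and Rasgrf2 a rho of -0.585. Within the 12 FC dVenus+ libraries alone these were 0.287 and -0.455, and the largest was that of Rasgrp1 (0.559, against 0.0945 across the 38). Rasgrf1 had a rho of 0.482 with the number of genes detected.

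The genes most like each member by Spearman correlation of log2 CPM across the 38 libraries, among 11263 genes compared, were as follows. Rasd1 was most like Txnl1 (rho 0.671), Nt5dc3 (0.670) and Srxn1 (0.658), and Rasd2 most like Rasgef1a (0.667), E130309F12Rik (0.555) and Abca3 (0.549). For Hras these were Rpl10 (0.636), Cwc25 (0.597) and Rpl19 (0.591), and for Nras they were Meis2 (0.552), Atf2 (0.543) and Mtf2 (0.538). Rasgrf1 was closest to Slc26a10 (0.733), Stim2 (0.712) and Igsf8 (0.708), and Rasgrf2 to Tcf4 (0.654), Shroom2 (0.632) and Gatc (0.623). Rasgrp1 paired with Crlf2 (0.573), Ppp1r1b (0.573) and Ccdc126 (0.523), and Nf1 with Gtpbp2 (0.763), 2410137F16Rik (0.660) and 2610019E17Rik (0.635).

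Other genes of Ras signalling, were taken from a list sorted by role. In FC, 89 were tested, 3 were called higher and 2 lower in dVenus+ cells, or 5.62% against 4.35% of all genes tested, and their median log2 difference was -0.17 against -0.11. With 5 calls, 3 of which were lost in most fits that left a mouse out, the share is no result about the list. In NS, edgeR called 0 of 79 (6 at an unadjusted p under 0.05, against 8.67% of all genes), with 4 of all genes called, and in HC 0 of 72 (4 at an unadjusted p under 0.05, against 7.01% of all genes), while DESeq2 called 6 and 2 of the list against 8.13% and 8.24% of all genes. By role, the FC medians were 0.36 over 17 Ras and Ras-like GTPases, -0.68 over 16 exchange factors, -0.48 over 16 GTPase activating proteins, 0.43 over 7 adaptors and -0.48 over 17 effectors and ERK cascade genes. The 4 feedback inhibitors tested had a median of 1.64, the 9 genes of lipid modification and trafficking -0.39, and the 3 partners of Rasd1 0.14.

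The GTPase called was Rala, which regulates vesicle exocytosis. It ranged from 29.5 to 312 CPM (median 70.6) in FC dVenus+ and from 4.47 to 77.8 CPM (median 42.5) in FC dVenus- libraries, and was higher in 11 of 12 mice by a log2 fold change of 1.66 (SE 0.46, edgeR, Benjamini-Hochberg adjusted p = 0.0379). Spry2, a feedback inhibitor of receptor tyrosine kinase signalling to Ras, ranged from 54.8 to 369.8 CPM in dVenus+ and from 0.305 to 59.1 CPM in dVenus- libraries. It was higher in 12 of 12 mice by 2.60 (SE 0.55, edgeR, Benjamini-Hochberg adjusted p = 0.00557), with an overlap only between the lowest dVenus+ and the highest dVenus- libraries. Rapgef1, an exchange factor for Rap1, had medians of 69.8 and 17.4 CPM and was higher in 11 of 12 mice by 2.31 (SE 0.68, edgeR, Benjamini-Hochberg adjusted p = 0.0484). In NS, Rapgef1 lay below the count filter and was lower in dVenus+ cells in 3 of 4 mice, with medians of 0.234 and 2.46 CPM.

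Both genes called lower encode GTPase activating proteins. Sipa1l2, which acts on Rap GTPases, ranged from 0 to 68.7 CPM (median 6.82) in FC dVenus+ and from 12.9 to 203 CPM (median 104) in FC dVenus- libraries. It was lower in 12 of 12 mice by a log2 fold change of -3.41 (SE 0.67, edgeR, Benjamini-Hochberg adjusted p = 0.00260). Rasa1, which acts on Ras itself, had medians of 19.6 and 100.7 CPM and was lower in 10 of 12 mice (-2.17, SE 0.64, edgeR, Benjamini-Hochberg adjusted p = 0.0493). In NS, Rasa1 went the other way, with medians of 116 and 36.5 CPM, 3 of 4 mice higher in dVenus+ cells and a log2 difference of 2.37 that was not called (SE 1.20, edgeR, Benjamini-Hochberg adjusted p = 0.585), and its FC effect differed from the NS effect by -4.59 (edgeR, Benjamini-Hochberg adjusted p = 0.445). Spry2 (2.68, SE 1.32), Rala (0.75, SE 1.05) and Sipa1l2 (-0.74, SE 1.90) kept the FC direction in NS. They were not called there (edgeR, Benjamini-Hochberg adjusted p = 0.574, 0.861 and 0.927). In HC the log2 differences were 0.25 for Rala, 0.52 for Spry2, 1.50 for Rapgef1, -0.68 for Rasa1 and -1.04 for Sipa1l2. These had the FC direction, with SE from 1.38 to 3.71, and none was called. The calls of Spry2 and Sipa1l2 held when any mouse was left out, whereas those of Rala, Rapgef1 and Rasa1 were lost in 9, 10 and 9 of the 12 fits that each left a mouse out, and also with the older quasi-likelihood method, without the count filter, without mice 03 and 05 and with the number of detected genes as a covariate. Rala also lost its call without the mouse block, Rapgef1 and Rasa1 over the genes of the authors' joint table, and Rasa1 with DESeq2's size factors. Within the ID series, none of the 5 passed the test alone.

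**Figure D4:**
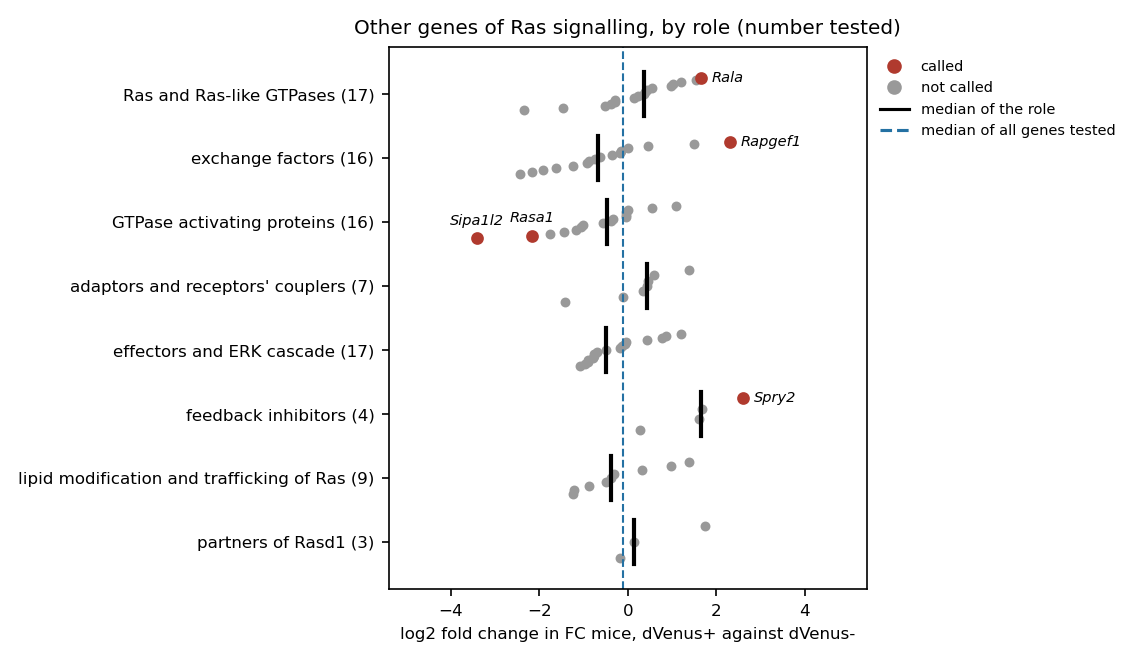
Log2 fold change in FC of the 89 tested genes of the Ras signalling list, 1 point per gene, arranged by role with the number tested in brackets, with black bars at the role medians and a dashed line at the median of all 9709 genes (-0.11). The called genes Rala, Rapgef1, Spry2, Rasa1 and Sipa1l2 are red and named.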

How the data were processed

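The authors deposited counts per gene for each library, made by demultiplexing with bcl2fastq, alignment to mm10 with TopHat2 2.0.13 and counting of uniquely mapped reads on NCBI transcripts with HTSeq 0.6.0, without normalization. In each library 5 rows that name no gene, such as reads outside genes (16.4% to 59.7%), were left out. For each training history, genes with 10 or more counts in no fewer libraries than there were mice were tested for dVenus+ against dVenus- with edgeR 4.0.16 in R 4.3.3 (TMM, mouse as block), and interactions over all libraries for genes with 10 counts in 3 libraries. The standard error is the log2 fold change divided by the square root of F. Coordinates and exon lengths are from GENCODE M21.

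The quasi-likelihood fit used edgeR's newer quasi-dispersion method (legacy = FALSE), which is not the default of this version. The plan did not name this setting, and it was chosen after the numbers of calls under both methods had been seen. The older method gives 137 calls in FC.

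The members and lists were chosen with earlier results of these data known. Named genes were the 8 members, called genes of the Ras list, the 3 genes most correlated with each member (log2 CPM, prior count 2, genes with 10 counts in 10 libraries) and Arc. Libraries pair because both come from the same mouse. Deviations from group means correlated weakly within mice (median r 0.0361 in FC, -0.0121 in NS and 0.0204 in HC). None of 150 pairs of libraries within groups was identical. The scripts were tested on simulated data. Alternatives were DESeq2 1.42.0 and its size factors, no filter, the joint table's genes, no block, each mouse or ID series left out or alone, a covariate, and the older method.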

Additional observations from a re-analysis of the deposited data

Results flagged for a closer look

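The gap of a group's highest and lowest library to the rest was examined only in groups of 4 to 10 libraries, here the NS groups, and of 15 combinations of gene and NS group 4 held a library far from the other 3. Chance alone gives about 5% of groups with normally distributed values, which was not shown for these pools, so nothing is read from the number. In NS dVenus+ cells, Rasd1 was 19.9 CPM in mouse 21 and 0 in the other 3 libraries, a pattern in which any count would stand apart. In the same group, Rasd2 was 5.25 CPM in mouse 20, far below the next at 88.4, and Rasgrf2 was 228.7 CPM in mouse 19, far above the next at 24.8. In NS dVenus- cells, Nras was 333.4 CPM in mouse 18, far above the next at 67.0. The 4 values come from 4 different mice, and no library stood apart for more than 1 of the 8 genes.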

How the results depend on the processing

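Of the 8 genes, Rasd1 in FC was the only one called, and it kept its direction in every alternative run. With the mouse block, Rasd1 lost the call under edgeR's older quasi-likelihood method (6.93), the default of this version. The newer method was chosen for the main fit after the calls under both had been seen. The call was also lost within the ID series of 2, 4 and 6 mice (3.66, 1.58 and 5.85) and with mouse 01 or mouse 14 left out (range over the 12 mice 3.85 to 5.11). Rasgrf2 in FC gained a call with DESeq2 (-2.09), without the replicate block (-2.18) and without mouse 04 (range -2.43 to -1.74), and Rasgrf1 in FC with DESeq2 (-1.04). Nf1 in NS gained one with DESeq2 (5.04). The cause was not tested, except that the ID series hold fewer mice.

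Counts of calls moved more. In FC, 422 calls became 1635 with DESeq2 (16.8% of all genes), 137 with the older method (1.41%) and 277 without mice 03 and 05. The ID series of 2, 4 and 6 mice gave 0, 12 and 15 calls, and fits with a mouse left out 292 to 405. Of the 8 genes in FC, 3 were called with DESeq2, 2 with no replicate block, 0 with the older method, 0 in each ID series and 0 to 2 with a mouse left out. Against 5 genes of the Ras list called in FC, 12 were called with DESeq2, which called 16.8% of all genes. The number was 2 without the count filter, with the older method and without mice 03 and 05. It was 0 in each ID series, 3 with the number of genes detected as a covariate and 2 to 5 with a mouse left out. With no block, without the count filter and with the covariate, the count over all genes lay between 0 and 1635. That is the range over all alternatives and gives no share for these settings. The counts of members and list genes there cannot be set against a background and are no result about either group. In NS, 4 calls became 11 with DESeq2's size factors, 1 without the count filter, 2 over the genes of the authors' joint table, 666 with DESeq2, 13 without the block, 0 with the older method and 0 to 2 with a mouse left out. The share of NS calls that were higher moved from 75% to 45.5% with DESeq2's size factors, which shifted the median of all genes by at most 0.07 (log2). DESeq2 called 6 genes of the list and 1 of the 8 in NS. In HC, 0 calls became 625 with DESeq2, 2 of them in the list, and 2 with the older method. Interaction calls were 0 except 1192 (FC minus NS) and 1583 (FC minus HC) with DESeq2, and 14 and 8 without the block.

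Small and larger differences changed sign. In FC, Rasgrp1 was 0.22 in the ID series of 6 mice and 0.16 with the covariate, and Hras was 0.29 in the series of 2 mice. Without the replicate block, NS Rasd2 was -0.0574, NS Rasgrp1 -0.55 and HC Hras -0.43, and among interactions FC minus NS was 0.24 for Rasgrf1 and -0.24 for Rasgrf2, and FC minus HC 0.94 for Rasgrp1. That last value was 0.28 with DESeq2 and 0.32 with its size factors, and Rasd1 FC minus NS was 1.73 with the older method. Apart from Rasgrf2 in FC, the block changed the call of none of the 8 genes. With a mouse left out, Rasgrp1 in FC ranged from -0.51 to 0.29. In NS, Rasd2 ranged from -0.29 to 1.99, Rasgrp1 from -0.60 to 0.79, Rasgrf1 from -2.26 to 0.96, Hras from -0.85 to 3.24 and Nras from -1.09 to 0.28. In HC, Rasd1 ranged from -5.67 to 6.36, Rasd2 from -4.16 to 0.43, Rasgrp1 from -2.72 to 2.20, Rasgrf2 from -1.98 to 0.89, Hras from -1.23 to 2.39 and Nf1 from -2.53 to 4.38.

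Pools of 10 cells vary widely (biological coefficient of variation 1.20 in FC and 1.42 in NS and HC), so with 4 and 3 mice only large differences could pass. Without TMM scaling group means moved, for example Rasd1 in NS dVenus+ from 4.97 to 2.51 CPM and Rasgrf2 from 67.7 to 36.1, and in HC Nras and Nf1 became higher in dVenus- cells. Most libraries outside FC dVenus+ hold no Rasd1 count, and a floor of 3 counts covers counting error only. Rasd1's size, call and comparison across training histories are therefore less certain than the direction in 10 of 12 FC mice, of which mouse 07 rests on 3 counts. The standard errors of the interactions exceed 1 log2 unit for all 8 genes.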
